A study of Zea mays with 54 samples.

Results

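A set of 54 maize genes was close to silent in roots at high phosphate (P) supply and was expressed at low P in most of 6 genotypes. The genes were chosen on their mean level over 3 replicates, in CPM (the count of a gene for every 1000000 counts in its library). A gene was a member when its mean was under 1 CPM at high P and 4 CPM or more at low P in at least 4 of EP1, SF1, SM1, F2, F142 and F160. Of 44146 nuclear gene models, 54 met this rule (0.122%). Because those 36 libraries chose the members, their values at high and low P are given as a description with no test. The genotypes P024, F7 and P415, counted in a second table of 18 libraries, took no part in the choice, and all tests below rest on them.

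The study profiled the roots of these 9 Zea mays genotypes by RNA sequencing at high P and at low P, with 3 libraries in each of 18 groups and 54 in all. It asked how maize lines with different breeding histories respond to phosphate limitation. The groups carry no agent or transgene by the labels and differ in genotype and P supply. P024, F7 and P415 were also counted in a separate table, so genotype and set of libraries cannot be told apart between the tables. The P concentrations, the medium, the age of the plants and whether a library came from a single plant or a pool were not given in the sources used here, so the spread behind each p-value is that between these libraries and may be technical.

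Plants sense a shortage of phosphate in the root and in the shoot. In Arabidopsis and rice, MYB-type factors of the PHR family bind a short motif in the promoters of starvation genes, while SPX-domain proteins hold these factors back as long as inositol pyrophosphates signal enough phosphate. When phosphate runs short, genes for high-affinity phosphate transporters, secreted acid phosphatases, enzymes that replace phospholipids with sulfolipids and galactolipids, SPX proteins themselves and non-coding RNAs such as the miR399 precursors are turned on, many of them from very low levels. The deposited tables and the RefSeq gene table used here do not pair the nuclear gene identifiers with names: 0 of the 54 members matched. No role is therefore given to a single member, and the lists of phosphate starvation genes and of root and shoot markers could not be filled. Of that pathway, 11 precursor features of miR399 and miR827 are named in the tables, and they held 0 counts in all 54 libraries. Taking 3 counts as the limit, a count of 0 allows up to 0.192 CPM in the shallowest library, for counting error only.

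The first table's libraries held between 15585904 and 28733284 counts each, those of the second between 15830403 and 24821387. The library labelled F7 low P 2 held transcripts that P024 expressed and the remaining F7 libraries lacked. Each of 33 genes that every P024 library expressed, and that the remaining F7 libraries lacked, exceeded 1 CPM in it, with a median ratio of 0.913 to P024. Absence from P415 or other genotypes was not required of these genes, so the source of the transcripts was not tested. The same library also held F7 transcripts: of 108 genes that F7 expressed and P024 lacked, 106 exceeded 1 CPM in it, with a median ratio of 0.249 to F7. The library labelled F7 high P 1 held some such transcripts at a far lower level, with 15 of 58 genes over 1 CPM and a median ratio of 0.00879. Counts of members called in F7 are given with and without these libraries, except by class of exception. Single F7 tests are given with and without F7 low P 2. The samples were bulk roots, in which fewer cells of a type and less RNA per cell cannot be told apart.

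At high P the 54 members together made up 16.4 CPM in F142 to 45.3 CPM in SM1, as the mean of 3 libraries. At low P they made up 1675 CPM in EP1, 1760 in F160, 2194 in SM1, 2199 in F2, 2248 in SF1 and 2861 in F142. The median member stood between 0.194 CPM (F142) and 0.524 CPM (F2) at high P, and between 10.1 CPM (F160) and 20.04 CPM (F142) at low P. The set was thus almost absent from the high P libraries and held a visible share of all reads at low P, up to 0.298% in the library F142 low P 2. In 321 of the 324 pairs of a member and a genotype the low P mean was above the high P mean. The high P library 2 of SM1 stood apart, with 71.7 CPM for the summed members against 28.4 and 35.8 CPM in the other high P libraries of SM1, and 31.8 of its 71.7 CPM came from Zm00001d024600.

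**Figure D1:**
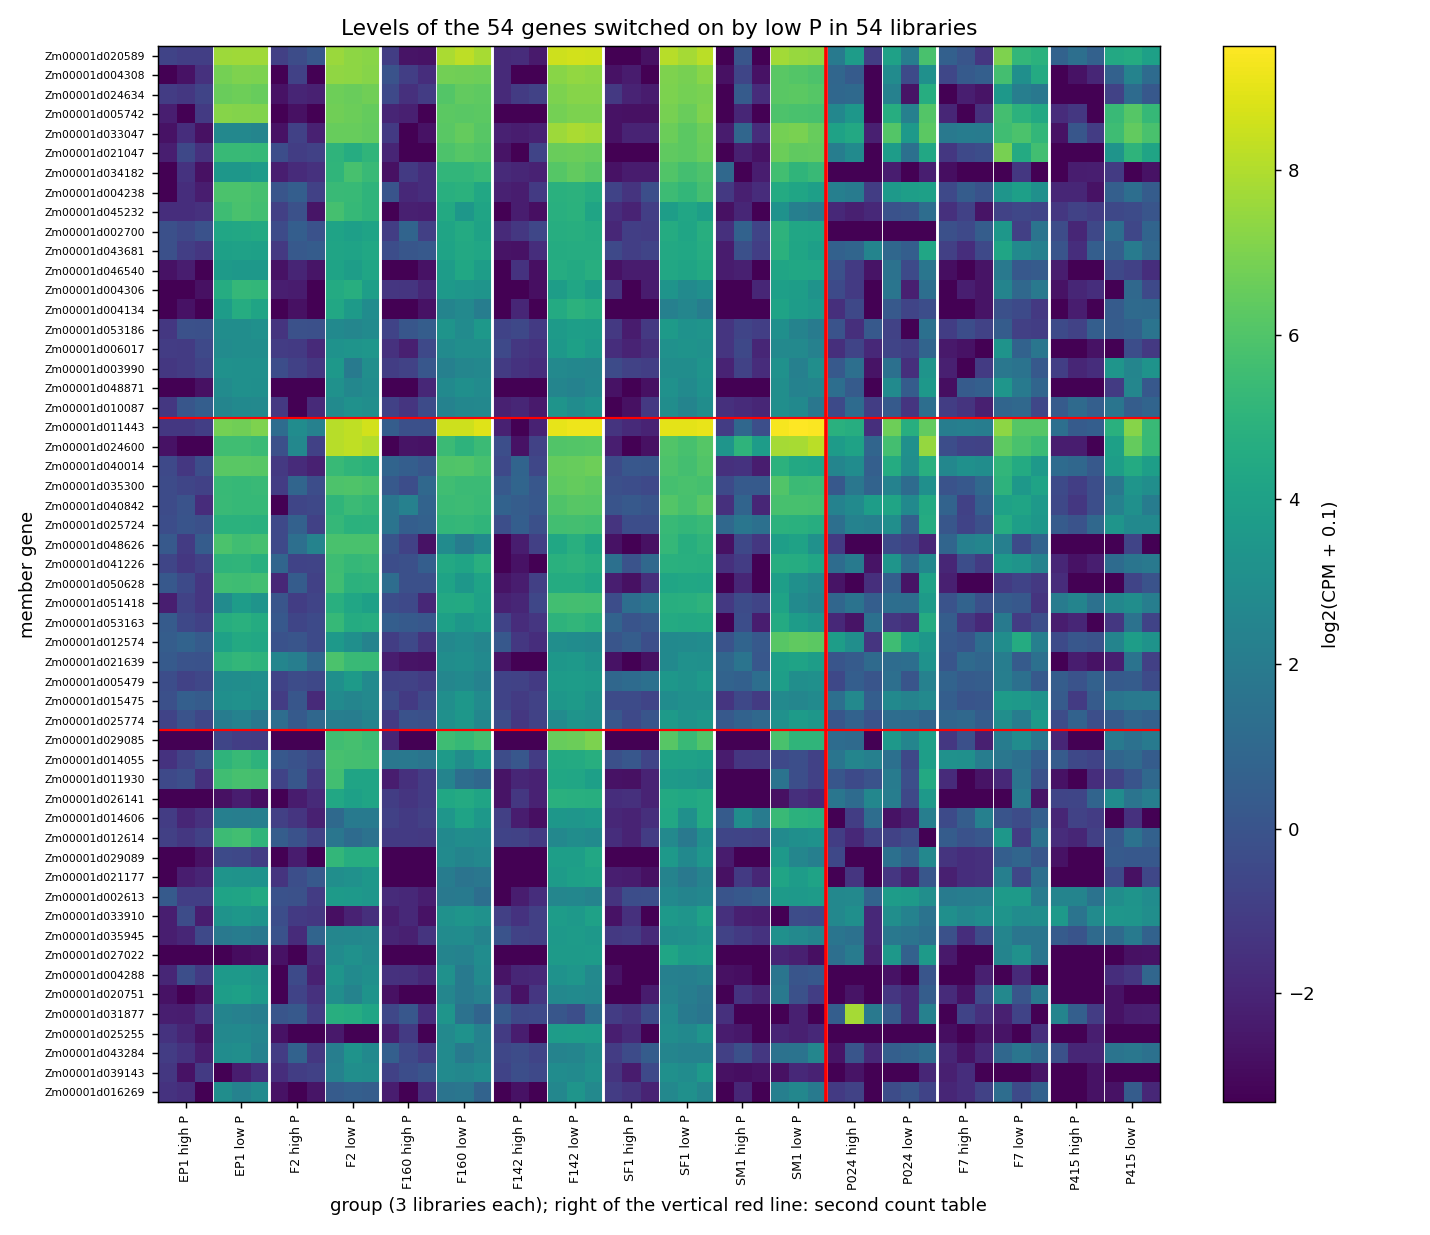
Level of the 54 members (rows) in the 54 libraries (columns, 3 per group), as log2(CPM + 0.1). Horizontal lines part the 19 members that met the limits in all 6 genotypes (top), the 16 whose exceptions were all at 1 CPM or more at high P (middle) and the 19 that stayed under 4 CPM at low P in at least 1 genotype (bottom). The low P columns of the first 6 genotypes are bright and their high P columns dark, while P024, F7 and P415, right of the vertical line, show a weaker contrast.

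Per length of transcript, the highest member at low P was Zm00001d020589, with a mean of 294 FPKM over the 6 genotypes (FPKM is the authors' scale, the count relative to gene length and library total). Its low P libraries held 194, 208 and 202 CPM in EP1, 193, 160 and 148 CPM in F2, 238, 297 and 224 CPM in F160, 374, 395 and 387 CPM in F142, 282, 222 and 294 CPM in SF1, and 213, 184 and 171 CPM in SM1. Its 18 high P libraries ranged from 0 to 1.03 CPM with a median of 0.20 CPM. No low P library of this gene came near a high P library, and F142 stood above all other genotypes.

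The next members by low P FPKM were Zm00001d011443 with 222 FPKM, Zm00001d034182 with 176 FPKM, Zm00001d024634 with 120 FPKM, Zm00001d033047 with 116 FPKM, Zm00001d004308 with 79.2 FPKM, Zm00001d029085 with 71.4 FPKM and Zm00001d005742 with 66.9 FPKM. The median member had 14.5 FPKM and the lowest 1.55 FPKM. Members were of ordinary size: their median gene length was 1378.5 bases, against 1263 bases over all nuclear gene models and 1828 bases over those with a mean of at least 1 CPM in the first table.

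Of these 7, Zm00001d024634 and Zm00001d004308 had the smallest ratios of the highest to the lowest genotype at low P. In Zm00001d024634 the low P mean lay between 73.8 ± 3.77 CPM (SD, n = 3) in SM1 and 139 ± 11.98 CPM in F142, while no high P library of the 6 genotypes was above 1.17 CPM. In Zm00001d004308 the low P mean lay between 66.9 ± 6.86 CPM in SM1 and 161 ± 11.4 CPM in F142, and no high P library was above 0.862 CPM. Both genes were thus lowest in SM1 and highest in F142, and even in SM1 their low and high P libraries were far apart.

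Zm00001d033047 and Zm00001d034182 met the limits everywhere but were low in EP1. Low P libraries of Zm00001d033047 held 6.24, 6.19 and 5.57 CPM in EP1, against means of 78.6 ± 8.26 CPM (SD, n = 3) in F160 to 215 ± 17.4 CPM in F142 in the other 5 genotypes. Zm00001d034182 had a mean of 11.8 ± 1.24 CPM in EP1, against 36.6 ± 2.88 CPM in F160 to 75.1 ± 8.14 CPM in F142. In both genes every low P library of EP1 lay below every low P library of the other 5 genotypes.

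F142 had the highest low P mean of all 6 genotypes for 27 of the 54 members, EP1 for 11, F2 for 8, SM1 for 5, SF1 for 3 and F160 for 0. SM1 had the lowest mean for 17 members, EP1 for 13, F160 for 11, F2 for 10, SF1 for 2 and F142 for 1. SM1 and EP1 therefore hold most of the low ends, although EP1 also has the second most high ends. Among the 19 members that met the limits in all 6 genotypes, the highest genotype was a median of 2.35 times the lowest at low P, with a range from 1.51 to 35.8 times.

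Of the 54 members, 19 met both limits in all 6 genotypes, 14 in 5 and 21 in 4. The 56 exceptions were of 2 kinds. In 29 the gene was at 1 CPM or more at high P and still reached 4 CPM at low P, and in 27 it was silent at high P and stayed under 4 CPM at low P. No exception failed both limits. With single libraries left out, 8 of the 29 and 1 of the 27 came within the limits. SM1 had 20 exceptions, F160 11, F2 10, EP1 8, SF1 4 and F142 3.

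**Figure D2:**
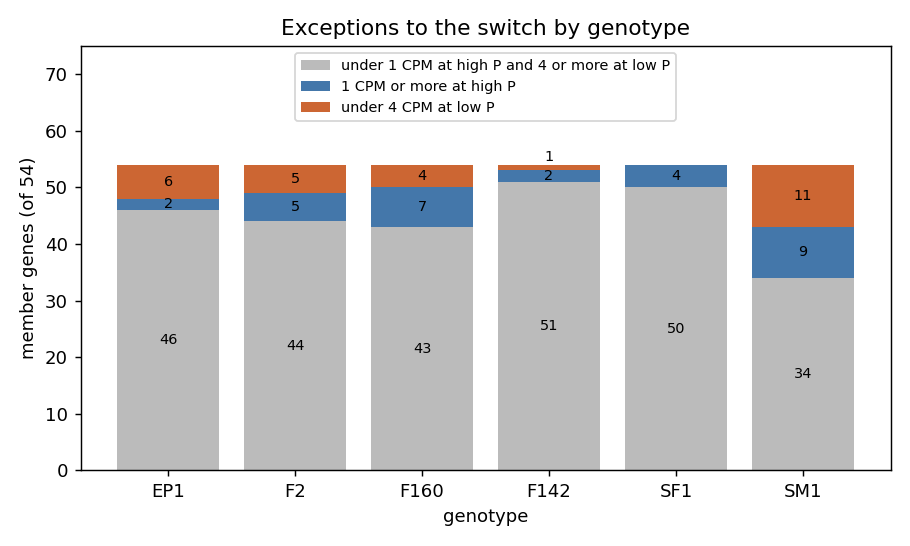
Number of the 54 members (vertical axis) in each genotype of the first count table that met both limits (grey), stood at 1 CPM or more at high P (blue) or stayed under 4 CPM at low P (orange). SM1 had the most exceptions of both kinds, with 9 and 11, and SF1 had 4 of the first kind and 0 of the second.

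Exceptions at high P were mostly partial. Zm00001d024600 was the clearest: its high P libraries held 10.3, 31.8 and 13.4 CPM in SM1 and 0.775, 6.14 and 0.449 CPM in F2, but no more than 0.741 CPM in EP1, F160, F142 or SF1. The same 2 genotypes were also highest at low P, with 216, 229 and 294 CPM in SM1 and 284, 316 and 260 CPM in F2. In the other 4 genotypes the low P means lay between 38.8 ± 6.44 CPM (SD, n = 3) in F160 and 67.5 ± 2.33 CPM in F142. SM1 thus stood above the rest at high P, while F2 had the highest low P mean, 286 CPM against 246 CPM in SM1. In F2 the exception rests on high P library 2, without which its high P mean was 0.612 CPM and met the limit. Low P libraries stood above high P libraries in all 6 genotypes.

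Zm00001d011443 was an exception in F2, where its high P libraries held 2.21, 7.34 and 4.88 CPM. It also missed the limit in SM1, with high P libraries at 0.389, 1.88 and 0.737 CPM, but met it without library 2, at 0.563 CPM. Its low P libraries held 112, 107 and 131 CPM in EP1, the lowest genotype, and 643, 727 and 693 CPM in SM1, the highest. Low and high P libraries were far apart in both.

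All other exceptions of this kind had high P means below the 4.81 CPM of Zm00001d011443 in F2. Zm00001d014055 held 3.25, 3.37 and 3.01 CPM at high P in F160. Zm00001d040842 held 3.04, 4.81 and 1.61 CPM at high P in F160 and 1.54, 1.29 and 1.05 CPM in F142. These levels lay far below the low P means of Zm00001d040842, which were 43.1 ± 1.83 CPM in F160 and 68.3 ± 5.03 CPM in F142 (SD, n = 3). Zm00001d005479 had a high P mean of 2.20 ± 0.373 CPM and a low P mean of 10.8 ± 1.25 CPM in SF1, the highest high P level among the 4 exceptions of that genotype. Zm00001d012574 missed the high P limit in EP1, with 1.35 ± 0.228 CPM, and in SM1, where it reached 77.1 ± 5.58 CPM at low P against 6.50 ± 0.938 to 19.5 ± 3.17 CPM in the other 5 genotypes.

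Exceptions at low P were sharper. In 14 of the 27 the genotype stayed under 1 CPM at low P, of which SM1 had 7, EP1 had 5, F2 had 2, and F160, F142 and SF1 had 0. In EP1, Zm00001d029085 held 0.545, 0.418 and 0.401 CPM at low P, against 47.9, 52.8 and 44.6 CPM in F2, 46.1, 38.7 and 51.2 CPM in F160, 93.5, 98.5 and 124 CPM in F142, 72.0, 42.0 and 64.1 CPM in SF1, and 57.3, 33.5 and 33.6 CPM in SM1. It was at 0 in 17 of the 18 high P libraries. EP1 was therefore the 1 genotype of the 6 in which this gene stayed near silent, though with 0 counts at high P and some in each low P library it was higher at low P there too. Zm00001d029089, named for sharing this exception after its values were seen, held 0.644, 0.592 and 0.401 CPM at low P in EP1, against means from 6.22 ± 0.747 CPM in F160 to 28.8 ± 6.08 CPM in F2 (SD, n = 3).

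In 3 members both EP1 and SM1 stayed silent. Zm00001d026141 held 0.0495, 0.104 and 0.0446 CPM at low P in EP1 and 0.051, 0.232 and 0.182 CPM in SM1. In the other 4 genotypes its low P means lay between 18.1 ± 2.75 CPM (SD, n = 3) in F2 and 27.1 ± 1.08 CPM in F142. Zm00001d027022 and Zm00001d039143, singled out after their values were seen, had the same split, with low P means of 0.0265 and 0.109 CPM in EP1 and 0.105 and 0.12 CPM in SM1. Their means in F2, F160, F142 and SF1 lay from 5.97 to 15.3 CPM and from 6.79 to 9.38 CPM.

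Another pair was silent in F2 and SM1. Zm00001d025255 held 0.0868, 0 and 0 CPM at low P in F2 and 0.153, 0.116 and 0.182 CPM in SM1, against means from 6.21 ± 0.528 CPM (SD, n = 3) in EP1 to 13.5 ± 0.387 CPM in F142. Zm00001d033910 held 0.0434, 0.132 and 0.226 CPM at low P in F2 and 0, 0.696 and 0.636 CPM in SM1, against means from 9.32 ± 0.884 CPM in F160 to 14.0 ± 1.98 CPM in F142. SM1 was therefore silent for each of these 5 members, and it was EP1 or F2 that shared its silence. Reads of every genotype were counted on gene models of the B73 line.

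The members that failed at low P in F160 came closer to the limit. Zm00001d011930 held 5.48, 2.41 and 1.88 CPM at low P in F160 and 2.90, 0.754 and 0.455 CPM in SM1, against 51.8 ± 3.36 CPM (SD, n = 3) in EP1. Zm00001d002613 stood at 3.22 ± 0.727 CPM in F160, against 5.64 ± 0.432 CPM in F142 and 19.0 ± 2.60 CPM in EP1. In F142 the only failure at low P was Zm00001d031877, which held 0.974, 0.733 and 2.40 CPM there and 0, 0.116 and 0 CPM in SM1, against 26.4, 24.1 and 18.4 CPM in F2.

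**Figure D3:**
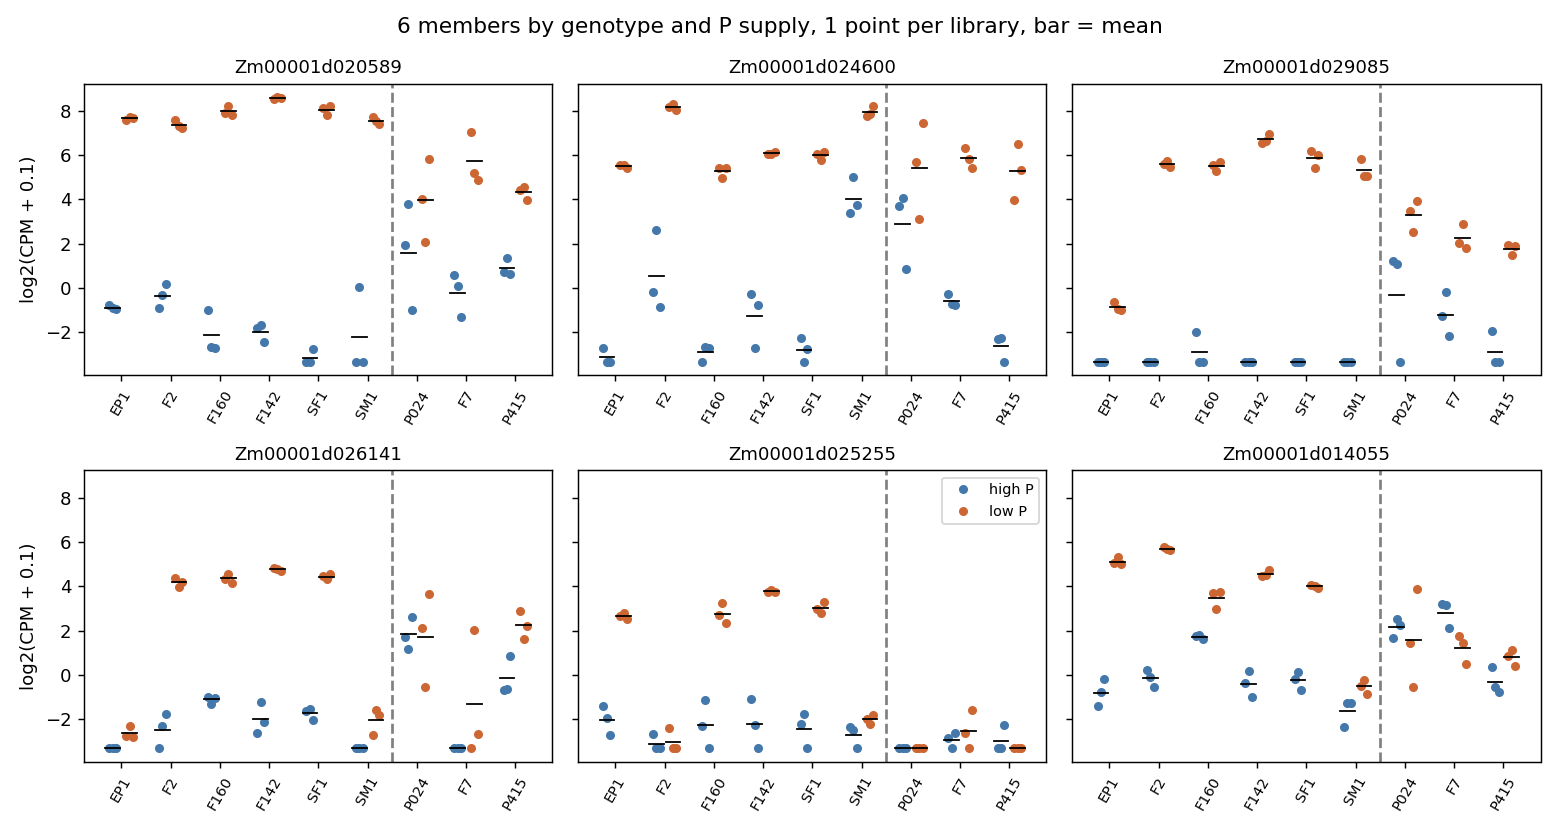
Level of 6 members, as log2(CPM + 0.1), in each library of the 9 genotypes at high P (blue) and low P (orange), with bars at the group means of that scale; the dashed line parts the first count table from the second. Zm00001d020589 and Zm00001d024600 stand higher at low P in all 6 genotypes left of the line, Zm00001d029085 stays near silent in EP1, Zm00001d026141 in EP1 and SM1, and Zm00001d025255 in F2 and SM1, while the F7 points of Zm00001d014055 lie lower at low P.

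The members nearest to the rule show how close some calls were. Zm00001d012574 was the nearest inside, with a high P mean of 0.9999 CPM in SF1, the fourth genotype to meet the limits. Zm00001d035300 followed, with 0.975 CPM at high P in SM1 and low P means of 39.9 to 83.8 CPM. Just outside were Zm00001d027994, whose high P mean in F142 was 1.01 CPM, and Zm00001d049196, whose low P mean in SM1 was 3.87 CPM. Each of these 2 genes met the limits in 3 genotypes.

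In the second count table the question was whether genes picked in 6 genotypes also responded in 3 others. Levels across the 2 tables come from separate sets of libraries and are set side by side only. The summed members stood at 59.9, 65.8 and 67.8 CPM at high P in F7 and at 963, 504 and 431 CPM at low P, where the 504 CPM belong to F7 low P 2. In P415 they stood at 48.6, 34.8 and 36.6 CPM at high P and at 279, 607 and 332 CPM at low P. In both genotypes the low P libraries lay apart from the high P libraries, below the 1675 to 2861 CPM seen at low P in the first table. P024 had 157, 412 and 61.5 CPM at high P and 516, 164 and 875 CPM at low P, and its P levels overlapped.

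**Figure D4:**
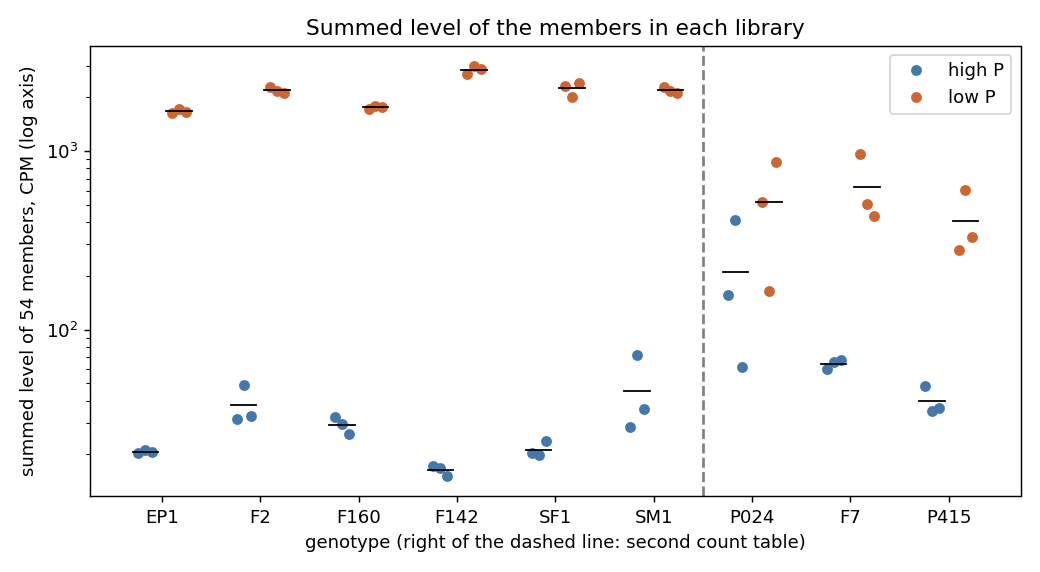
Summed level of the 54 members in each library, in CPM on a log axis, at high P (blue) and low P (orange), with bars at the group means; the dashed line parts the first count table from the second. All 18 low P libraries of the first table lie at 1639 CPM or more and all 18 high P libraries at 71.7 CPM or less, F7 and P415 separate by a smaller distance, and the P levels of P024 overlap.

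Fewer members were silent at high P in these genotypes than in those of the first table. The members were chosen in the first table for silence at high P and expression at low P. Fewer members meeting these limits in genotypes outside the choice can therefore follow from the choice alone, and a difference between the genotypes was not tested here. The high P mean was 1 CPM or more for 30 of 54 members in P024, for 18 in F7 and for 12 in P415. The low P mean reached 4 CPM for 30, 26 and 16 members. Both limits of the rule together were met by 4 members in P024, 14 in F7 (16 without F7 low P 2) and 9 in P415. Over all nuclear gene models they were met by 0.0272% in P024, 0.673% in F7 (0.462% without F7 low P 2) and 0.0838% in P415. For 30 of the 54 members both limits were met in none of the 3 genotypes, for 21 in 1, for 3 in 2, and for 0 in all 3. The median member went between the P levels from 1.201 to 5.28 CPM in P024, while F7 went from 0.548 to 3.80 CPM and P415 from 0.223 to 1.77 CPM.

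For each genotype the P levels were compared by edgeR's quasi-likelihood test, over all features that passed its filter on low counts, and called at a Benjamini-Hochberg adjusted p under 0.05. In F7, 29 of the 54 members rose and 1 fell, and 24 were not called, of which 13 were too low to be tested. Of all 24471 features tested in F7, 10.9% rose and 12.1% fell. Without the library F7 low P 2, 32 members rose and 1 fell, against 15.5% and 18% of all features, and all 29 were among the 32. Without both doubted F7 libraries 33 rose and 0 fell, against 14.5% of all features rising and 4306 of 24578 falling. With no filter, so that all 54 were tested, 30 rose and 1 fell, against 6.93% of features rising and 2709 of 33761 falling.

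Among single members in F7, Zm00001d024600 had the smallest p. Its libraries held 0.725, 0.506 and 0.485 CPM at high P and 79.6, 56.5 and 43.1 CPM at low P. The groups did not overlap, and the log2 fold change was 6.66 ± 0.33 (SE) with an edgeR adjusted p of 0.000805, or 0.000121 without F7 low P 2. Zm00001d033047 held 3.51, 4.11 and 4.00 CPM at high P and 47.2, 59.0 and 35.8 CPM at low P, a log2 fold change of 3.61 ± 0.24 with an edgeR adjusted p of 0.000936, or 0.000151 without F7 low P 2. Zm00001d011443 held 4.19, 4.56 and 4.30 CPM at high P and 161, 70.4 and 69.3 CPM at low P, a log2 fold change of 4.52 ± 0.38 with an edgeR adjusted p of 0.00107, or 0.000201 without that library. The last 2 of these were already expressed at high P in F7 and still rose.

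The member that fell in F7 was Zm00001d014055. It held 8.98, 8.66 and 4.24 CPM at high P and 3.27, 2.59 and 1.31 CPM at low P, with no overlap. Its log2 fold change was -1.62 ± 0.45 (SE) with an edgeR adjusted p of 0.0398, 0.0353 without F7 low P 2, and 0.0591 without both doubted libraries, where the call is lost. It is also lost without F7 high P replicate 1, high P replicate 2, low P replicate 1 or low P replicate 3, with edgeR adjusted p of 0.12, 0.151, 0.0602 and 0.107. In EP1, F2, F142 and SF1 the same gene stood between 0.51 and 0.826 CPM at high P and between 15.8 and 51.0 CPM at low P. F7 was thus high for it where those genotypes were silent. F160 and P024 were not silent for it at high P either, with means of 3.21 and 4.48 CPM, against 0.242 CPM in SM1 and 0.748 CPM in P415.

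In P415, 9 of the 54 members rose and 0 fell, with 34 tested. Of all 23962 features, 49 rose (0.204%) and 0 fell. All 9 were also among the 29 that rose in F7. Zm00001d005742 held 0.212, 0.322 and 0 CPM at high P and 41.4, 69.0 and 38.6 CPM at low P, a log2 fold change of 8.09 ± 0.65 (SE) with an edgeR adjusted p of 0.0152. The low P level of this member in P415 was near that in SM1, where its mean was 57.04 ± 3.78 CPM (SD, n = 3).

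Zm00001d020589, the leading member by FPKM in the first table, held 1.54, 2.47 and 1.46 CPM at high P and 21.4, 23.7 and 15.6 CPM at low P in P415, a log2 fold change of 3.49 ± 0.32 (SE) with an edgeR adjusted p of 0.0206. Zm00001d003990 held 0.424, 0.161 and 0.217 CPM at high P and 10.1, 5.71 and 9.38 CPM at low P, a log2 fold change of 4.96 ± 0.46 with an edgeR adjusted p of 0.0206. The first of these stood below every low P mean of its own in the first table, while the mean of the second, 8.40 ± 2.36 CPM (SD, n = 3), lay within the range of 5.57 to 8.70 CPM of its low P means in the first table.

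The count in P415 depended on single libraries. It was 0 without high P replicate 1, 0 without high P replicate 2, 1 without high P replicate 3 and 2 without low P replicate 3. DESeq2 called 21 members higher in P415, against 1.14% of all features, and with no filter edgeR called 14, against 0.254%. Leaving the test aside, every low P library was above every high P library for 34 of 54 members in P415, 35 in F7 and 11 in P024. Over all features with a count this held for 4.23%, 16.3% and 2.21%. The reverse order was found for 1 member in P415, 1 in F7 and 0 in P024, against 4.59%, 17.9% and 2.67% of features. Without F7 low P 2 the F7 counts were 38 higher and 1 lower, against 23.7% and 26.5%, and without both doubted libraries 41 and 3, against 29.4% and 31.0%.

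In P024, 0 of the 54 members were called with edgeR and 0 with DESeq2, with 40 tested and 0 of 23864 features called by edgeR and 2 by DESeq2 (0.00838%). At an unadjusted p under 0.05 edgeR had 6 members, against 1.13% of all features, and DESeq2 had 12, against 2.28%. The smallest p was that of Zm00001d045232, which held 0.175, 0.117 and 0.174 CPM at high P and 0.833, 0.927 and 2.29 CPM at low P, with a log2 fold change of 3.07 ± 0.58 (SE) and an edgeR adjusted p of 1. Zm00001d011930 followed, with 0.994, 0.646 and 0.87 CPM at high P and 3.96, 0.754 and 21.8 CPM at low P, a log2 fold change of 3.30 ± 1.11 and the same adjusted p. The groups did not overlap for the first and did for the second. With a replicate block (a term for each library number) edgeR again called 0 members and 0 of 23864 features. At an unadjusted p under 0.05 it then had 11 members, against 1532 of 23864 features.

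The P024 libraries spread widely, and number 3 stood apart from numbers 1 and 2 at both P levels. Libraries with the same number deviated alike from their group means, with correlations across genes of 0.647, 0.444 and 0.798. Across numbers, high P 1 with low P 2 had 0.604 and high P 2 with low P 1 had 0.39. Library 3 of either P level with library 1 or 2 of the other had -0.743 to -0.504. Between same-numbered libraries, 48 of 54 members were higher at low P for number 1, 51 for number 3 and 21 for number 2. Over all features with a count this share was 44.9%, 48.3% and 40.8%. The low P library 2 was thus the 1 in which the set was not raised over the high P library of the same number. With Zm00001d031877 set aside, whose high P libraries held 1.35, 217 and 3.54 CPM, the summed members stood at 195 CPM in high P library 2 and 163 CPM in low P library 2. High P libraries 1 and 3 then stood at 155 and 58.0 CPM, below low P library 2.

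**Figure D5:**
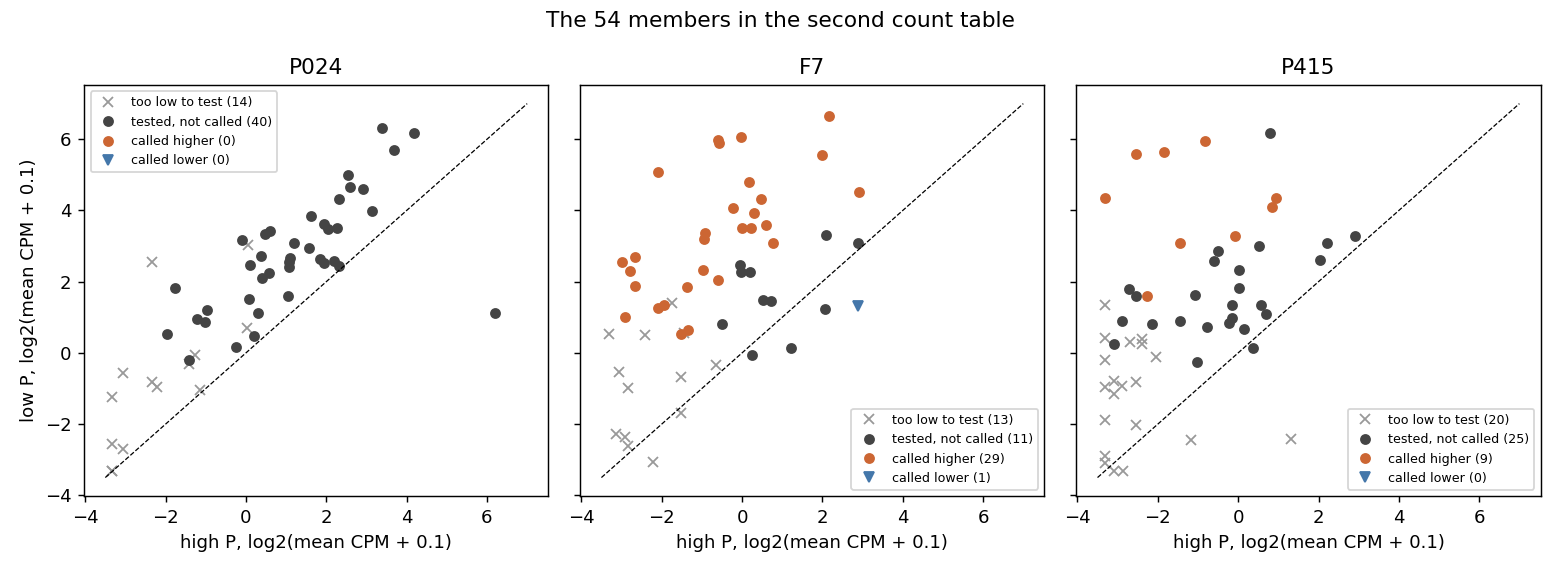
Mean level of each of the 54 members at low P (vertical axis) against high P (horizontal axis), as log2(mean CPM + 0.1), in P024, F7 and P415; the dashed line marks equal levels. Orange points rose and the blue triangle fell in the edgeR test, black points were tested and not called, and grey crosses were too low to test: 29 rose in F7, 9 in P415 and 0 in P024, and most points lie above the line in each genotype.

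On a scale that does not depend on a filter, the median difference of log2(CPM + 0.5) between low and high P over all 54 members was 1.91 in F7 (1.96 without F7 low P 2), 1.17 in P415 and 1.01 in P024. The median over all features with a count was -0.02 in F7, -0.02 in P415 and -0.05 in P024. In the first table, where the members were chosen, the same median ran from 3.54 in SM1 to 4.96 in F142. The low P mean was above the high P mean for 51 members in P024, 48 in F7 and 49 in P415.

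Averaged over the 3 genotypes in a model of all 18 libraries, 34 of the 54 members rose and 0 fell in edgeR, with 50 tested. Of all 26975 features, 2.78% rose and 417 fell. Without F7 low P 2, 33 rose against 3.02% of features, and 32 of them were in both lists. Without both doubted libraries 29 rose (2.38% of features), with no filter 32 (1.85%), with DESeq2 39 (5.34%) and with a replicate block 34 (4.88%). The smallest p was that of Zm00001d024600, whose log2 fold change averaged 6.26 ± 0.66 (SE), at an edgeR adjusted p of 0.000211. By its means it stood higher at low P in 3 of 3, with P024 going from 10.4 ± 7.73 to 78.9 ± 87.3 CPM, F7 from 0.572 ± 0.133 to 59.7 ± 18.5 CPM and P415 from 0.0711 ± 0.0616 to 48.4 ± 37.4 CPM (SD, n = 3).

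Zm00001d040842 and Zm00001d035300 came next. Zm00001d040842 went from 8.72 ± 4.71 to 15.6 ± 8.09 CPM in P024, whereas F7 went from 1.13 ± 0.606 to 15.2 ± 3.05 CPM and P415 from 0.555 ± 0.22 to 5.89 ± 2.48 CPM (SD, n = 3). Over the 3 genotypes its log2 fold change was 2.69 ± 0.30 (SE), at an edgeR adjusted p of 0.000332. Zm00001d035300 had 2.97 ± 0.35 with an edgeR adjusted p of 0.000476, and its F7 libraries held 0.886, 1.07 and 1.94 CPM at high P against 31.6, 11.2 and 17.1 CPM at low P. For Zm00001d040842 the P levels overlapped in P024 and not in F7 or P415.

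How the response of the members differed among P024, F7 and P415 was tested as an interaction. It called 0 of the 54 members in edgeR, against 2.77% of all features, and 15 had an unadjusted p under 0.05, against 15.4% of all features. DESeq2 called 6, against 8.75% of all features. The smallest edgeR adjusted p were 0.0604 for Zm00001d040842 and 0.0645 for Zm00001d024600. These do not show that the genotypes responded alike. The spread was wide, the biological coefficient of variation of the fit being 0.482.

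Of the 19 members that met the limits everywhere, 12 rose in F7, 5 in P415 and 15 on average. Of the 16 whose exceptions were all at high P, 10, 4 and 12 rose. Of the 19 that stayed under 4 CPM in at least 1 genotype, 7, 0 and 7 rose. Over all features tested, 10.9% rose in F7, 0.204% in P415 and 2.78% on average. With 41 members tested in F7, 34 in P415 and 50 on average, those too low to test count here as not rising. These counts include F7 low P 2. The difference between these classes was not tested.

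Some members did not follow the others into the second table. Zm00001d034182, which had 176 FPKM at low P in the first table, stood at no more than 0.377 CPM in any of the 18 libraries of P024, F7 and P415, with 22 counts in all. Zm00001d025255 and Zm00001d039143 also stayed under 1 CPM in all 18, with 9 and 13 counts. At low P Zm00001d034182 thus stood at 36.6 to 75.1 CPM in F2, F160, F142, SF1 and SM1. It was near silent in 3 other genotypes, which came from a separate set of libraries.

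Others were expressed at both P levels in these genotypes. Zm00001d033910 held 8.26, 6.13 and 7.46 CPM at high P and 9.92, 7.39 and 7.71 CPM at low P in F7, with a log2 fold change of 0.20 ± 0.25 (SE) and an edgeR adjusted p of 0.624, or 0.405 without F7 low P 2. In P415 it stood at 7.38 ± 4.49 and 9.58 ± 1.28 CPM and in P024 at 4.90 ± 4.23 and 5.35 ± 2.63 CPM (SD, n = 3). In the 4 genotypes of the first table that switched it on, its high P means were at most 0.379 CPM. Zm00001d002613 had means of 4.16 ± 0.209 CPM (high P) and 9.76 ± 5.04 CPM (low P) in F7, with an edgeR adjusted p of 0.0884, or 0.127 without F7 low P 2. Averaged over the 3 genotypes it rose by 1.14 ± 0.30 (log2, SE) with an edgeR adjusted p of 0.0461, a call that is lost without F7 low P 2, at 0.0694.

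The members silent in both EP1 and SM1 parted in the second table. Zm00001d027022 rose in F7, from 0.0806, 0 and 0 CPM to 5.44, 8.78 and 3.14 CPM, with a log2 fold change of 7.19 ± 0.87 (SE) and an edgeR adjusted p of 0.00244. The 8.78 CPM belong to F7 low P 2, without which the log2 fold change was 6.76 ± 0.79 with an edgeR adjusted p of 0.000935. In P415 it held 0.0555 CPM or less in every library. Zm00001d026141 had means of 0.916 ± 0.663 CPM (high P) and 4.92 ± 2.25 CPM (low P) in P415 (SD, n = 3), with an edgeR adjusted p of 0.359, and at 3.77 ± 1.97 and 5.67 ± 5.99 CPM in P024. In F7 it was at 0 in the 3 high P libraries and at 0, 3.98 and 0.0571 CPM at low P. The 3.98 CPM belong to F7 low P 2, the library that held transcripts present in P024 and lacking in the other F7 libraries.

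Zm00001d029085 had low P means of 10.7 ± 4.82 CPM in P024, 4.92 ± 2.12 CPM in F7 and 3.38 ± 0.589 CPM in P415 (SD, n = 3). In F7 it rose from 0.322, 0.788 and 0.121 CPM to 4.05, 7.33 and 3.37 CPM, with a log2 fold change of 3.55 ± 0.68 (SE) and an edgeR adjusted p of 0.011, and averaged over the 3 genotypes it rose by 4.08 ± 0.65 with an edgeR adjusted p of 0.00231. Without F7 low P 2 these values were 3.17 ± 0.64 with 0.00869 and 3.96 ± 0.66 with 0.00319. Its partner in the EP1 exception, Zm00001d029089, rose in F7 by 2.37 ± 0.48 with an edgeR adjusted p of 0.0134 and on average by 3.95 ± 0.64 with 0.0025, or without F7 low P 2 by 2.17 ± 0.54 with 0.0196 and by 3.90 ± 0.65 with 0.00331. Both genes were thus low in EP1 and raised at low P in F7, at levels under those of the 5 genotypes that met the limits.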

How the data were processed

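The authors deposited raw read counts per gene in 2 tables of 36 and 18 libraries. They also deposited FPKM values with gene lengths. The submitters' processing notes name fastp, HISAT2, HTSeq and B73 RefGen_v4. No source used here gives tool versions or whether counting used strand, so overlapping genes and near-identical copies are uncertain. For the members, 2579 of 2579 FPKM values above 0 equalled the count divided by gene length and library total to within 0.001 of the value. FPKM served only to compare levels between genes.

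Members and gene lists were chosen with earlier results of these data known. Counts of the second table were tested with edgeR 4.0.16 (TMM, filterByExpr, quasi-likelihood F-test; limma 3.58.1, R 4.3.3), checked on simulated data, with Benjamini-Hochberg adjustment over all tested features. The SE printed beside a log2 fold change is approximate: its size divided by the root of the F statistic. With 3 libraries against 3, an exact permutation test of 1 gene cannot go below 0.10. Alternatives were RLE and total-count scaling, no filter, DESeq2 1.42.0, limma-voom, a replicate block, each library left out, and other limits of the rule.

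Correlations of same-numbered libraries were 0.647, 0.444 and 0.798 in P024, 0.142, 0.324 and 0.14 in P415, and -0.166, -0.182 and 0.125 in F7. Unlike numbers reached 0.604 in P024, 0.2 in P415 and 0.235 in F7, so a pairing by number was not established. The main fits used no pairing, and the replicate block was an alternative in every test. Genes were named by rule: the 8 highest by low P FPKM, the largest exceptions per genotype (at low P by the ratio to the other genotypes with 0.1 CPM added to both), the smallest p per test and the nearest to the limits. Lists of phosphate starvation genes, markers and a promoter motif could not be matched to the identifiers and were not used here.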

Additional observations from a re-analysis of the deposited data

Results flagged for a closer look

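For 3 members every low P library lay below every high P library in 1 genotype and above it in at least 4 others. Members were chosen for a higher low P mean in at least 4 genotypes of the first table, so a rise there was set by the choice. The lower order held for 17.9% of all features with a count in F7 and 4.59% in P415, and was not counted in F2. Zm00001d014055 differed by -4.91 CPM (low P minus high P) in F7, the opposite of 7 genotypes, of which only P415 took no part in the choice. Among P024, F7 and P415 its interaction had an edgeR adjusted p of 0.32. Zm00001d031877 differed by -2.29 CPM in P415 and Zm00001d033910 by -0.33 CPM in F2, each the opposite of 4 genotypes, all used by the rule. For these the difference between genotypes was not tested. The F2 case rests on 13, 7 and 5 counts at high P and 1, 3 and 5 at low P, in libraries that the rule used.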

How the results depend on the processing

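The number of members was 58 with TMM-scaled CPM, 53 over nuclear counts and 52 to 59 without replicate 1, 2 or 3; it was 16 with limits of 0.5 and 8 CPM, 292 with 2 and 2 CPM, 33 in at least 5 genotypes, 19 in all 6 and 35 with every library past the limits. Members called were 22 to 33 in F7, 0 to 11 in P415, 0 in P024, 28 to 36 on average and 0 to 7 for the interaction when each library was left out in turn. Features called were then 2567 to 8394 in F7, 1 to 62 in P415 and 0 in P024. They were 660 to 2342 on average and 224 to 1214 for the interaction. The interaction called 7 without P024 high P replicate 3, 3 without P024 low P replicate 3 and 1 without P024 high P replicate 1. Over all features it called 924 of 27524, 1214 of 27473 and 667 of 27648 in these settings. In P415 the count was 14 with no filter and 21 with DESeq2, and the interaction had 6 with DESeq2. With the replicate block 25 members were called in F7, 8 in P415, 0 in P024, 34 on average and 0 for the interaction. Features called with it were 4129 of 24471 in F7, 49 of 23962 in P415 and 1898 of 26975 for the interaction. The block moved no count of members by over 1.5 times, while features called on average went from 1167 to 2463. Of the alternatives for single named tests, 232 kept direction and side of the threshold, 14 lost the call, 4 gained it and 0 changed sign. The 3 members named for P415 lost their calls without high P replicate 1 and without high P replicate 2. With DESeq2 the features called went from 49 to 326 in P415, from 1167 to 2395 on average and from 748 to 2360 for the interaction. Without F7 low P 2, DESeq2 called 34 members in F7 (9514 of 25046 features) and limma-voom 33 (8113 of 25046). The replicate block without it called 32 on average (2858 of 27633). These settings, and leaving single libraries out of the exceptions, were chosen after seeing the data. Depth limits members near 0.192 CPM.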
